A study of Sus scrofa with 150 samples.

Results

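Pig livers of high and of low heat shock score were compared, the 30 highest against the 30 lowest of 150. The score was the mean log2 level of 4 probe sets of the heat shock response, those of HSPH1, DNAJB1, HSPA8 and BAG3, and livers tied on it were kept in sample order. The comparison asked which other transcripts were higher or lower in livers whose heat shock chaperones were high. All 150 pigs were commercial animals of the cross labelled Pix(DLxDE), and the livers were collected when the pigs were slaughtered, at a mean weight of 110 kg. No pig had a labelled treatment, and age, sex, family and slaughter day were not given. Each pig was profiled on 1 Affymetrix Porcine Genome Array, which gives log2 levels per probe set, a group of short probes for a transcript. The labels also give 2 traits per pig, the fat area over the long back muscle and the drip loss of that muscle.

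The heat shock response protects cells when proteins unfold. Heat shock factor HSF1 is held inactive by chaperones in unstressed cells, and when unfolded proteins draw the chaperones away it switches on genes for HSP70, HSP90, their J-domain partners and small heat shock proteins. HSPA8 is the constitutive cytosolic HSP70, DNAJB1 is a J-domain protein that delivers clients to HSP70, and HSPH1 and BAG3 are nucleotide exchange factors that release them. In liver the response is also known to follow the daily rhythm of body temperature.

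The score averaged 9.75 (SD 0.574, n = 30) in the high livers and 8.50 (SD 0.136, n = 30) in the low livers, against 9.09 (SD 0.50) over all 150. The high livers ran from 9.3725 to 12.5225 and the low livers from 8.1675 to 8.64. The limits fell within a continuous range: the last liver inside the high set had 9.3725 and the first outside 9.3625, and the last inside the low set had 8.64 and the first outside 8.65. A single liver stood far above the others at 12.5225, since the next had 10.2225, and the high livers without it averaged 9.66 (SD 0.242, n = 29).

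Because the 4 probe sets chose the livers, their differences describe the choice and were not tested. HSPH1 was 2.72-fold higher in the high livers, HSPA8 2.58-fold, BAG3 2.33-fold and DNAJB1 1.98-fold. HSPA8 separated the sets most cleanly, with 29 of 30 high livers above the highest low liver, while 18 did so for HSPH1, 19 for BAG3 and 21 for DNAJB1. The sets were not simply each gene's own extremes. Of the 30 high livers, 21 were among the 30 highest for HSPA8, 18 for BAG3, 17 for HSPH1 and 16 for DNAJB1.

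The values below describe how the 4 genes moved together. They cannot check the label of a heat shock state, since the same genes chose the livers. Over the 150 livers Pearson's r ran from 0.34 between HSPA8 and BAG3 to 0.615 between DNAJB1 and HSPA8. HSPH1 and DNAJB1 had r = 0.378, which fell to 0.11 without the single highest liver, and their rank correlation was 0.0979 with it. The chaperones therefore formed a loose group and the score is an average over partly separate variation. A second BAG3 probe set was 0.97 (log2) higher in the high livers, at 6.38, 7.44 and 9.63 (lowest, median, highest) against 5.79, 6.50 and 7.22. The other 3 HSPA8 probe sets differed by 0.02, 0.02 and -0.01 and had correlations with the score between -0.0028 and 0.0256, so only the HSPA8 probe set in the score carried the HSPA8 difference.

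**Figure D1:**
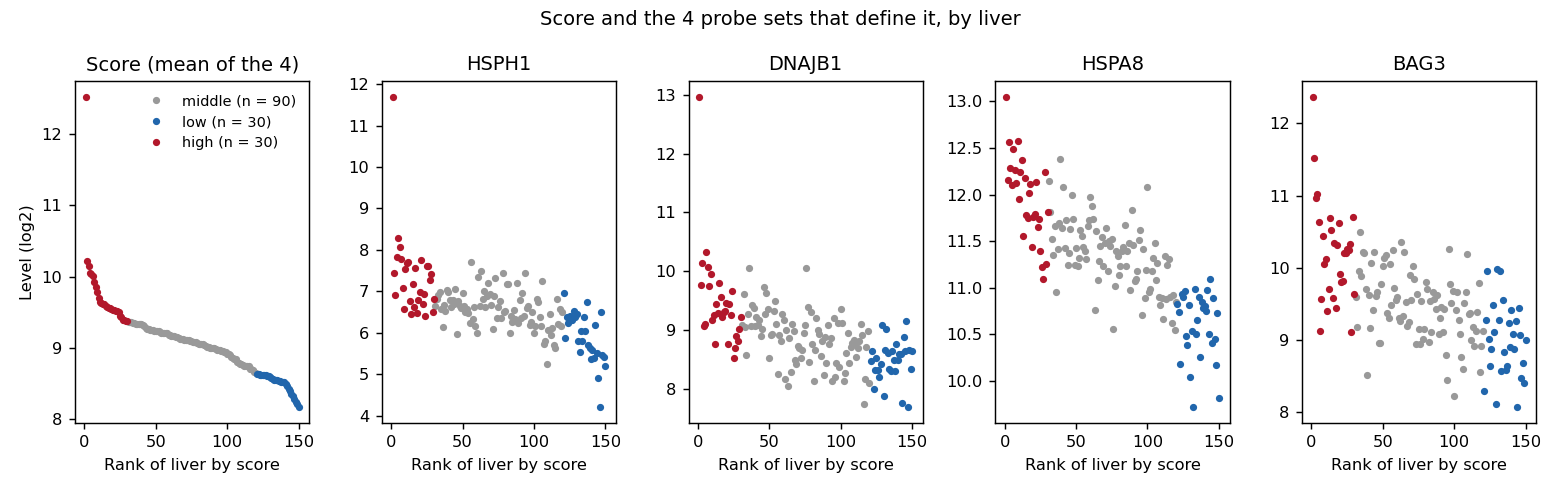
The heat shock score (first panel) and the log2 levels of the 4 probe sets that define it, by liver, with livers in order of score on the x axis and the log2 level on the y axis; red points are the 30 high livers, blue the 30 low livers and grey the 90 between. The score falls smoothly but for the single liver at 12.5225. For HSPH1, DNAJB1 and BAG3 some low livers overlap the high livers, while for HSPA8 the sets only meet at 11.09.

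Array quality was measured in several ways. Array medians over all livers ran from 5.79 to 6.09 (log2), 2.75% of values lay at the lowest value of 4.09, where changes are understated, and 13 arrays stood apart by a low correlation with the rest, 3 of them high and 4 low livers. Without those 7 livers 3252 probe sets passed in the comparison that follows, 2912 of them shared. Defining hepatocyte transcripts were high in every liver, albumin (ALB) at 13.69 to 14.11 and transthyretin (TTR) at 13.06 to 13.69. The 3' to 5' difference of beta-actin, a sign of RNA integrity, averaged 2.70 (SD 0.464) in the high and 2.96 (SD 0.498) in the low livers, a difference of -0.27 (SE 0.124, permutation p = 0.0371, adjusted p = 0.099 over 8 measures). A fit with the 3' to 5' differences of actin and GAPDH as covariates called 4144 probe sets, 3249 of them shared with the fit without covariates.

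Of 23995 probe sets tested, 3446 (14.4%) passed at an adjusted p under 0.05 (limma), 2145 higher (8.94%) and 1301 lower (5.42%) in the high livers. The other probe sets lay on the same arrays as the 4 that chose the livers. In whole tissue, fewer cells of a type and less RNA per cell cannot be told apart. Counted by gene, with each gene taken by its probe set of smallest p, 1604 of 6761 passed (23.7%), 983 higher (14.5%) and 621 lower (9.19%), and these shares are the background for each count below. Most differences were small: 25 of the called probe sets were more than 1 log2 unit higher and 7 more than 1 lower, and none separated the sets without overlap. The median difference over all genes was -0.01. Without the single highest liver 3336 probe sets passed (13.9%), 3252 of them shared. The calls depended on which genes made the score: without HSPH1 in it 2405 probe sets passed, of which 1218 were shared.

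Among 71 measured genes in 7 chaperone lists, 26 were higher (36.6%) and 2 lower (2.82%) in the high livers and the rest did not pass, with a median difference of 0.14. Most of the 26 lay in the HSP70, J-domain, HSP90 and chaperonin machinery, while the small heat shock proteins and the mitochondrial chaperones stayed at or near the background. The lists and the score share a subject and were chosen with results of these data known, so the counts describe the chaperones and give no separate support for the label.

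In the HSP70 list 4 of 13 measured genes were higher and 0 lower (6 and 1 by a slope on the score over all 150 livers). HSP70.2, the stress-inducible HSP70, had levels of 9.81, 10.59 and 13.34 (lowest, median and highest, log2) in the high livers and 8.82, 9.67 and 10.22 in the low livers. All 30 high livers lay above the low livers' median and 23 above every low liver. The difference was 1.04 (SE 0.14, adjusted p = 3.11e-07), a 2.06-fold difference, and the gene's other 2 probe sets were 1.03 and 0.87 higher. Near-identical HSP70 genes can share probes, and whether these probe sets separate them could not be told without probe sequences.

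HSPA13, a microsomal HSP70-like ATPase, ran over 6.35, 7.46 and 9.08 in the high livers and 4.95, 6.38 and 8.01 in the low livers. The sets overlapped widely, with 8 high livers above every low liver. It differed by 1.22 (SE 0.19, adjusted p = 4.46e-06), the largest difference in this list. HSPA4, an exchange factor related to HSPH1, was 0.74 higher (adjusted p = 2.57e-05), and the mitochondrial HSPA9 0.40 higher (adjusted p = 0.0154). Other HSPA4 probe sets differed by 0.37, which passed, and 0.07, which did not. Those of HSPA9 differed by 0.25, which passed, and 0.14, which did not. HSPA6, a strictly inducible HSP70, did not pass, although it was far higher in the single highest liver.

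Among J-domain proteins, which stimulate the ATPase of HSP70 and bring it clients, 6 of 11 were higher and 0 lower, with a median of 0.28, and 3 were higher without HSPH1 in the score. DNAJA1, an abundant cytosolic partner of HSPA8, had 8.76, 9.715 and 11.75 in the high livers against 7.37, 8.65 and 9.42 in the low livers. Every high liver exceeded the low livers' median and no low liver reached the high livers' median. DNAJA1 differed by 1.04 (SE 0.13, adjusted p = 5.26e-08), although a second probe set differed by -0.13 and did not pass. DNAJB4 was 0.82 higher, DNAJC2, which works at the ribosome, 0.54, DNAJA2 0.47, DNAJB6 0.36 and DNAJC8 0.28. The other DNAJB6 probe sets, at 0.13, 0.04 and 0.21, did not pass. DNAJA4, DNAJB2 and DNAJC5 had differences of -0.15, -0.07 and -0.05 that did not pass.

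Of 13 genes of the HSP90 system, 6 were higher and 1 lower. PPID, a cyclophilin that binds HSP90, rose from 6.77, 7.195 and 8.11 in the low livers to 7.47, 7.98 and 8.62 in the high livers. All 30 high livers lay above the low livers' median. The difference was 0.71 (SE 0.095, adjusted p = 2.52e-07), and a second probe set at -0.13 did not pass. CACYBP, a calcyclin-binding protein, was 0.65 higher. STIP1, the adaptor that links HSP70 to HSP90, was 0.43 higher (SE 0.074, adjusted p = 2.27e-05), with all 30 high livers above the low livers' median.

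HSP90AA1, the inducible HSP90, was 0.58 higher (SE 0.18, adjusted p = 0.0163) by its probe set of smallest p, but its other 4 probe sets, between -0.02 and 0.29, did not pass. HSP90AB1, the constitutive form, differed by 0.04 and did not pass. SUGT1 and PTGES3, both HSP90 co-chaperones, were 0.42 and 0.31 higher. UNC45A, a myosin co-chaperone, was 0.20 lower (log2 difference -0.20, adjusted p = 0.000685).

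The cytosolic chaperonin, the ring that folds actin and tubulin, was higher in nearly all its measured subunits. Of 6 subunits 5 passed, all higher, while of 5 prefoldin subunits, which hand clients to it, VBP1 alone passed. CCT8 had 8.89, 9.64 and 10.23 in the high and 8.21, 9.04 and 9.49 in the low livers. The sets overlapped at their edges, with 21 high livers above every low liver and no low liver above the high livers' median. CCT8 differed by 0.63 (SE 0.073, adjusted p = 1.52e-08), while CCT6A was 0.75 higher, CCT2 0.47, TCP1 0.42 and CCT4 0.37. A second CCT4 probe set differed by 0.02 and did not pass. CCT7 differed by 0.04 and did not pass.

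Few genes of the remaining chaperone lists passed. Of 7 small heat shock proteins, CRYAB alone passed (0.18, adjusted p = 0.0338), and without the single highest liver it no longer passed (adjusted p = 0.0547). That probe set averaged 4.78 in the high and 4.60 in the low livers, near the array's lowest value, and the gene's other probe set differed by -0.11 and did not pass. HSPB1, a classical heat shock protein, had a difference of -0.29 that did not pass. Of 6 mitochondrial chaperones and proteases, the protease YME1L1 was 0.41 higher and the disaggregase CLPB 0.39 lower (log2 difference -0.39), while the chaperonin pair HSPD1 and HSPE1 did not pass at 0.26 and 0.01. The mitochondrial list thus had 1 call in each direction.

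Among heat shock factors and other targets of HSF1, 2 of 10 passed. ZFAND2A, a zinc finger protein that acts with the proteasome under stress, spanned 4.09, 9.025 and 11.28 in the high livers and 4.21, 7.39 and 9.16 in the low livers. The sets overlapped over most of their range, and a high liver held the lowest value of both sets. It differed by 1.47 (SE 0.31, adjusted p = 0.000441). IER5, a regulator of HSF1, was 0.42 higher (adjusted p = 0.0087), though its other 2 probe sets did not pass. HSF1 itself differed by -0.06 and HSF2 by 0.22, and neither passed.

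**Figure D2:**
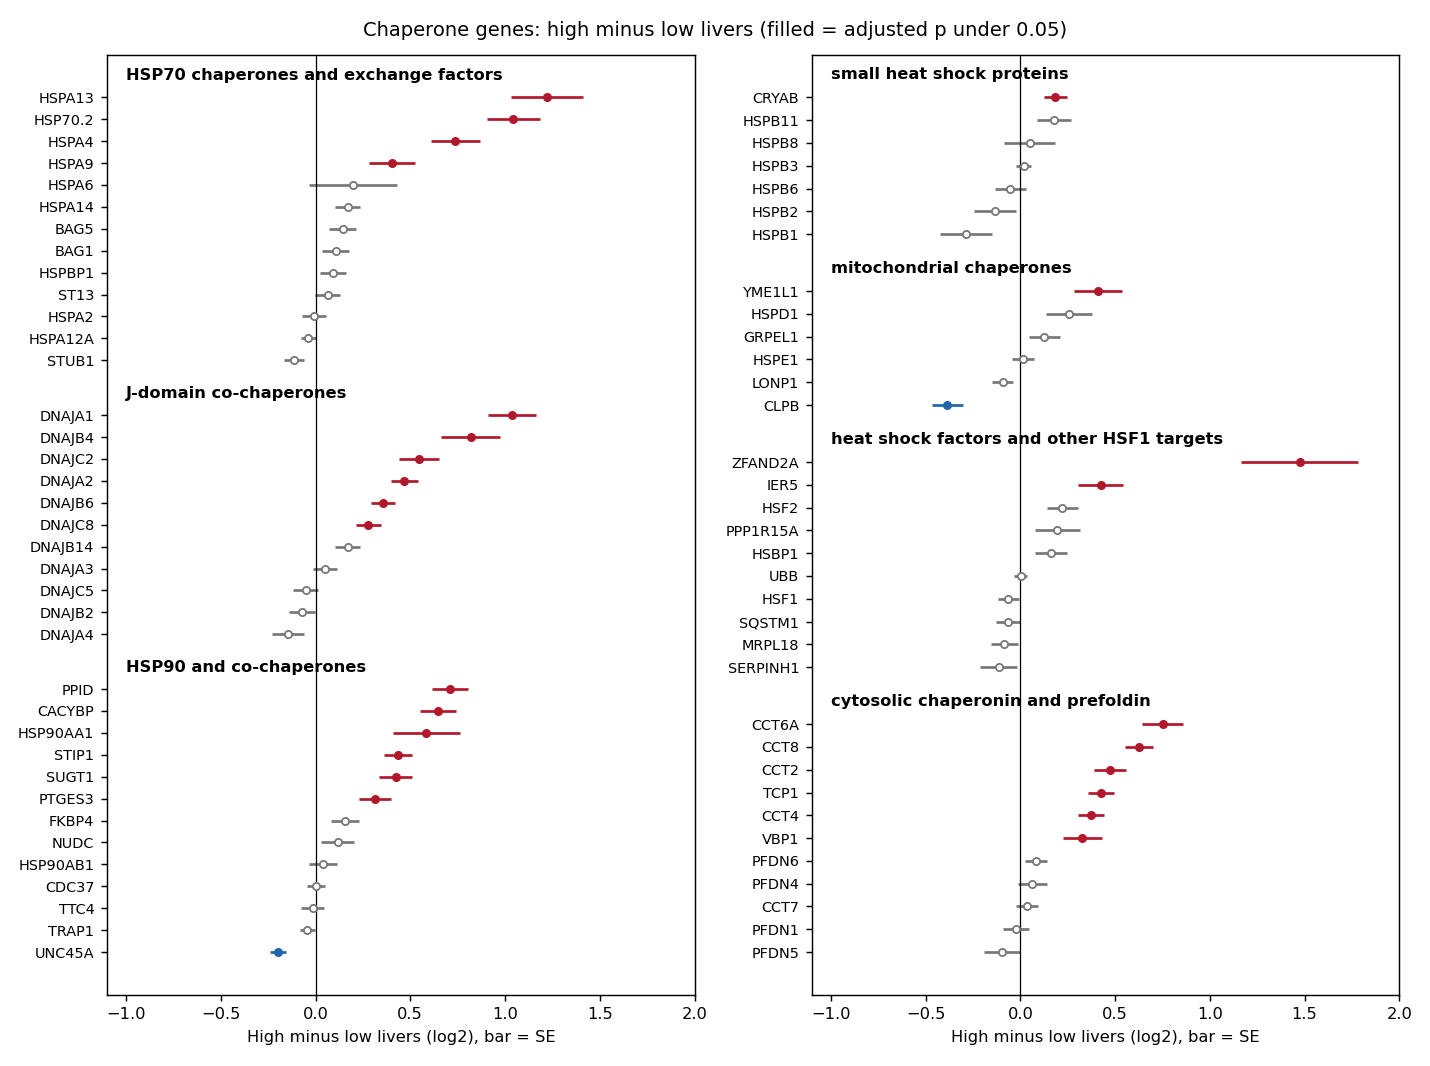
High minus low difference (log2, x axis) of the 71 measured chaperone genes by list, with the standard error as a bar; filled red points were higher and filled blue points lower at an adjusted p under 0.05, and open points did not pass. The HSP70, J-domain, HSP90 and chaperonin lists hold most of the 26 higher genes, and ZFAND2A differs most.

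The proteasome degrades what chaperones cannot refold, and its subunits were counted by the part they belong to. Of 31 subunits 13 were higher (41.9%) and 2 lower, with a median of 0.08. The alpha ring, which gates entry to the core, had 5 of 7 higher and 1 lower, and the cap had 2 of 5 ATPases and 6 of 12 other subunits higher. The catalytic beta ring had 0 of 7 higher and 1 lower, with a median of -0.08.

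PSMD12, a scaffold of the cap, had 6.93, 7.38 and 8.15 in the high livers against 6.20, 6.775 and 7.49 in the low livers. All 30 high livers exceeded the low livers' median, and 13 exceeded every low liver. It differed by 0.59 (SE 0.086, adjusted p = 1.56e-06). PSMA5 of the alpha ring was 0.55 higher and PSMD14, the deubiquitinase of the cap, 0.54, while PSMB7 was 0.15 lower (log2 difference -0.15, adjusted p = 0.015). PSMD6, PSMC6, PSMD1 and PSMD5 were 0.40 to 0.46 higher. Whether the difference between alpha and beta ring held beyond these counts was not tested.

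Of 17 genes for chaperones and stress factors of the endoplasmic reticulum, where liver folds its plasma proteins, 8 were higher and 0 lower, with a median of 0.28. With PLIN2 and CPT1A as covariates 4 were higher. HSPA5, the HSP70 of this compartment, had 10.94, 12.07 and 12.78 in the high livers and 10.40, 11.16 and 12.45 in the low livers. It lay above the low livers' median in 28 of 30 high livers, with overlap at both ends. HSPA5 differed by 0.79 (SE 0.12, adjusted p = 2.54e-06), its J-domain partner DNAJB9 by 0.95 (SE 0.13, adjusted p = 2.26e-07), and the secreted MANF by 0.83 (SE 0.15, adjusted p = 5.81e-05). HYOU1 was 0.72 higher and HSP90B1 0.58.

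Of the lectin chaperones and disulfide isomerases of the same compartment, CANX, CALR, PDIA3, PDIA4 and PDIA6 had differences from -0.11 to 0.28 that did not pass. In the amino acid response governed by ATF4, 3 of 12 were higher and 1 lower, and 0 were higher with the clock genes DBP, ARNTL and NFIL3 as covariates. ATF4 itself was 0.53 higher (adjusted p = 1.12e-05), while its targets ASNS, DDIT3 and PSAT1 differed by 0.03, 0.03 and -0.24 and did not pass. Those 3 do not stand for the list, which also held the other calls counted above. Of GARS and AARS, GARS probe sets at 0.27 and 0.17 passed, and an AARS probe set at 0.08 did not.

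Immediate early genes, the first transcripts to rise after a stress or hormone signal, had 8 of 17 higher and 0 lower, with a median of 0.38. The count was 4 without BAG3 in the score, 5 with title blocks as a covariate (blocks of 100 of the number in each label), 1 with PLIN2 and CPT1A as covariates and 12 by a slope over all 150 livers. ATF3 had 5.59, 6.86 and 10.95 in the high livers against 5.49, 6.145 and 6.85 in the low livers. No low liver reached the high livers' median, yet the lower high livers lay among the low livers. The difference was 0.85 (SE 0.22, adjusted p = 0.00461). ZFP36, which destabilises inflammatory mRNAs, was 0.87 higher, MYC 0.70, GADD45B 0.68 and JUN 0.65. EGR1, IER2 and SOCS3 differed by 0.13, 0.10 and -0.02 and did not pass.

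Genes induced by glucocorticoids, the adrenal stress hormones, had 4 of 10 higher and 0 lower, and 2 higher and 1 lower without BAG3 in the score. FKBP5, a co-chaperone of the glucocorticoid receptor, had 5.41, 6.30 and 7.72 in the high livers and 5.10, 5.61 and 6.54 in the low livers. Of the high livers 13 exceeded every low liver, and 25 exceeded the low livers' median. It differed by 0.68 (SE 0.12, adjusted p = 4.05e-05). The kinase SGK1 was 0.83 higher, KLF9 0.49 (-0.075 on a second probe set, which did not pass) and CEBPD 0.46. Other CEBPD probe sets differed by 0.51, which passed, and 0.17, which did not. TSC22D3, TAT and PCK1, at -0.30, 0.21 and 0.26, did not pass.

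Clock genes hold the daily rhythm of the liver. Of 6 measured, NFIL3 and ARNTL were higher and DBP lower. NFIL3, a repressor of the same promoter elements that DBP activates, had 8.05, 9.275 and 10.02 in the high livers and 7.31, 8.29 and 9.43 in the low livers, a difference of 0.92 (SE 0.14, adjusted p = 1.92e-06). DBP had 6.06, 7.315 and 8.30 in the high livers against 7.31, 8.335 and 9.74 in the low livers. All 30 high livers lay below the low livers' median of DBP, and 15 lay below every low liver. DBP differed by -1.08 (SE 0.15, adjusted p = 7.58e-07), and ARNTL, a core activator of the clock, by 0.47 (adjusted p = 0.0123). The hour of slaughter is not in the labels, so time of day and score cannot be told apart.

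With the levels of DBP, ARNTL and NFIL3 as covariates, 1063 probe sets passed instead of 3446. In that fit the chaperonin and prefoldin list had 5 higher genes (6 without covariates), the J-domain list 5 (6), the HSP90 list 4 (6), the HSP70 list 3 (4) and the proteasome 5 (13). The endoplasmic reticulum list had 1 (8), the glucocorticoid list 2 (4) and the immediate early list 0 (8). The list medians in that fit, with those without covariates in brackets, were 0.38 (0.33) for chaperonin and prefoldin, 0.20 (0.28) for J-domain, 0.17 (0.16) for HSP90, 0.11 (0.14) for HSP70 and 0.10 (0.08) for proteasome genes. They were 0.13 (0.28) for the endoplasmic reticulum, 0.19 (0.24) for the glucocorticoid and 0.0016 (0.38) for the immediate early list. The proteasome thus had fewer calls at a similar median. HSP70.2, DNAJA1, STIP1, PPID, CCT8, TCP1 and PSMD12 each passed there, while HSPA13, HSPA5 and ZFAND2A had adjusted p values of 0.085, 0.0533 and 0.351.

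CIRBP, an RNA-binding protein that rises in the cold, was lower in the high livers. It had 5.80, 6.205 and 7.13 in the high livers and 6.21, 6.81 and 7.43 in the low livers. All 30 low livers lay above the high livers' median and 15 high livers lay below every low liver. The difference was -0.49 (SE 0.085, adjusted p = 2.46e-05), and it did not pass with the clock genes as covariates (adjusted p = 0.179). RBM3, the other measured cold-inducible protein, differed by 0.13 and did not pass.

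**Figure D3:**
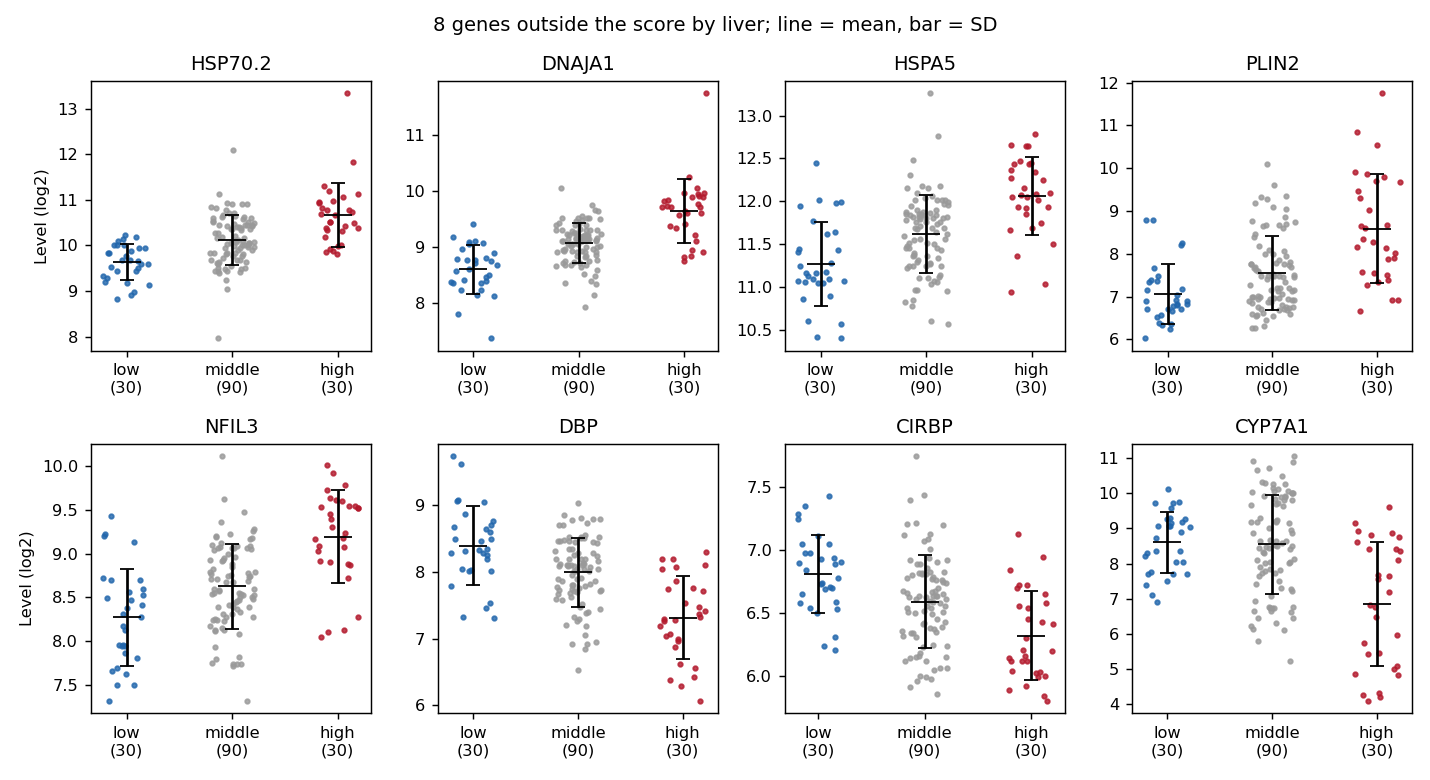
Levels (log2, y axis) of 8 genes outside the score in the 30 low (blue), 90 middle (grey) and 30 high (red) livers, each point a liver, with the mean as a line and the SD as a bar. HSP70.2, DNAJA1, HSPA5, PLIN2 and NFIL3 step up from low to high livers and DBP, CIRBP and CYP7A1 step down, with overlap in each.

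Liver both burns and makes fatty acids, and the genes of each pathway were counted apart. Of 16 fatty acid oxidation genes and targets of the nuclear receptor PPARA, 5 were higher and 1 lower, and of 12 genes of fatty acid and triglyceride synthesis 0 were higher and 4 lower. The difference between the pathways was not tested. The oxidation list had 2 higher with title blocks as a covariate and 3 without BAG3 in the score, and the synthesis list had 2 lower without HSPH1. PLIN2, the coat protein of lipid droplets, had 6.65, 8.31 and 11.75 in the high livers and 6.02, 6.86 and 8.78 in the low livers. It lay above the low livers' median in 29 of 30 high livers and above every low liver in 11. PLIN2 differed by 1.53 (SE 0.26, adjusted p = 1.44e-05), a 2.88-fold difference.

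CPT1A, which admits fatty acids to mitochondria, was 0.79 higher (SE 0.21, adjusted p = 0.00494), and PDK4, which spares glucose, 0.71 higher (SE 0.19, adjusted p = 0.00764). HADHB and ETFDH were 0.28 and 0.25 higher and HADH 0.18 lower (log2 difference -0.18). The droplet lipase activator ABHD5 and glycerol kinase GK, both outside the list, were 1.00 and 1.07 higher. ABCD3, a peroxisomal fatty acid transporter, was 1.18 higher (SE 0.19, adjusted p = 1.01e-05), and its other 2 probe sets were also higher.

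On the synthetic side LPIN1, a phosphatidate phosphatase, differed by -0.82 (SE 0.20, adjusted p = 0.00253) and by -0.94 on its other probe set. DGAT2, which makes triglyceride, had 9.15, 10.09 and 10.99 in the high livers against 9.86, 10.76 and 11.21 in the low livers. Of the low livers 28 exceeded the high livers' median. DGAT2 differed by -0.55 (SE 0.096, adjusted p = 2.80e-05) and DGAT1 by -0.27 (-0.19 on another probe set, which did not pass). FASN, the fatty acid synthase, differed by -0.75 (SE 0.21, adjusted p = 0.0118), with its other 3 probe sets at -0.51 to -0.05 not passing. SCD had -0.41 and did not pass.

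With PLIN2 and CPT1A as covariates, added after the data were seen, 2238 probe sets passed, and FASN changed direction to 0.12 (adjusted p = 0.786). In that fit 1 oxidation gene was higher, and of the synthesis genes 1 was lower and 2 were higher. PLIN2 and CPT1A are themselves among the 5 higher oxidation genes and, as covariates, could not be called there. Part of the fall from 5 to 1 was therefore fixed beforehand. With the clock genes as covariates none of PLIN2, CPT1A, LPIN1, DGAT2 and FASN passed. Their differences there were 0.62, 0.29, -0.07 (-0.34 on the other LPIN1 probe set), -0.36 and -0.19. The oxidation list then had 2 higher at a median of 0.29 (0.25 without covariates), and the synthesis list 0 lower at -0.08 (-0.19).

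The largest difference in the whole comparison was in bile acid synthesis. CYP7A1, its rate-limiting enzyme, had 4.09, 7.0 and 9.62 in the high livers against 6.91, 8.815 and 10.12 in the low livers. The high livers had a long lower tail: 15 of them lay below every low liver, and others reached the low livers' range. It differed by -1.76 (SE 0.35, adjusted p = 0.000196), 3.38-fold higher in the low livers, and this understates it where values lie at the lowest level. Neither CYP8B1 and CYP27A1 of the same pathway nor the transporters SLC10A1 and ABCB11 passed. CYP7A1 did not pass with the clock genes (adjusted p = 0.328) or with PLIN2 and CPT1A (adjusted p = 0.326) as covariates.

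The remaining large differences were scattered over functions. MFSD2A, a lysophospholipid transporter, had the largest positive difference, 1.72 (SE 0.37, adjusted p = 0.000727), with 5.34, 9.965 and 11.49 in the high and 5.32, 7.635 and 10.54 in the low livers. Both sets spanned nearly its whole range, and it did not pass without BAG3 in the score (adjusted p = 0.0898) or with the clock genes as covariates (adjusted p = 0.76). LITAF, an endosomal protein, was 1.06 higher, and of its other probe sets 1 was 0.76 higher while those at -0.12 and -0.18 did not pass. ALAS1, the first enzyme of haem synthesis, was 1.00 higher on the probe set of largest difference and 0.83 and 0.86 on its other probe sets. IGFBP1, a secreted binder of insulin-like growth factors, was 1.00 higher on 1 probe set and 0.14 lower (log2 difference -0.14) on another.

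Among genes lower in the high livers, SAT2 was well separated. It had 6.04, 6.675 and 7.30 in the high livers and 6.55, 7.495 and 8.14 in the low livers, and no high liver reached the low livers' median. It differed by -0.78 (SE 0.094, adjusted p = 3.26e-08). ZNF395 differed by -0.77 and REEP4, a reticulum-shaping protein, by -0.77, with 17 and 19 high livers below every low liver. Other ZNF395 probe sets at -0.68 and -0.66 passed, and that at -0.08 did not. ITIH1, a plasma protein of the inter-alpha-inhibitor family, differed by -1.05 (SE 0.20, adjusted p = 9.53e-05), but its second probe set by -0.07 without passing. CEBPA, a hepatocyte transcription factor, differed by -0.64, with its second probe set at 0.11 not passing, and CYP26A1, which degrades retinoic acid, by -0.72.

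CA3, a carbonic anhydrase of muscle and liver, differed by -1.14 (adjusted p = 0.0183) and by -1.12 on its second probe set. It is also on the skeletal muscle list below, and its difference went to 0.25 with the clock genes as covariates.

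Ribosomal proteins build the machinery of translation. Of 58 cytosolic ribosomal proteins 21 were lower (36.2%) and 1 higher, but the differences were small, from -0.20 to 0.32 with a median of -0.10. RPL3 had 11.32, 11.82 and 12.17 in the high livers and 11.69, 12.00 and 12.34 in the low livers, and differed by -0.19 (SE 0.047, adjusted p = 0.00287). RPS9 differed by -0.20. The count rested on the make-up of the score: 3 were lower without HSPH1 in it and 2 without BAG3, against 28 without DNAJB1 and 26 without HSPA8. With title blocks as a covariate 9 were lower, with the clock genes 11, without the arrays that stood apart 7, and by a slope over all 150 livers 12.

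Oxidative phosphorylation had 6 of 30 lower and 3 higher. CYCS, the electron carrier cytochrome c, stood out at 0.79 higher (SE 0.11, adjusted p = 3.59e-07), with all 30 high livers above the low livers' median. NDUFB8 and NDUFV1 of complex I and COX6C, COX7A2 and COX5B of complex IV differed by -0.22 to -0.16. Without HSPH1 in the score 1 gene of this list was lower and 1 higher, and 1 was lower without BAG3, 16 without DNAJB1 and 11 without HSPA8. With the clock genes as covariates 1 was lower and 0 higher.

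**Figure D4:**
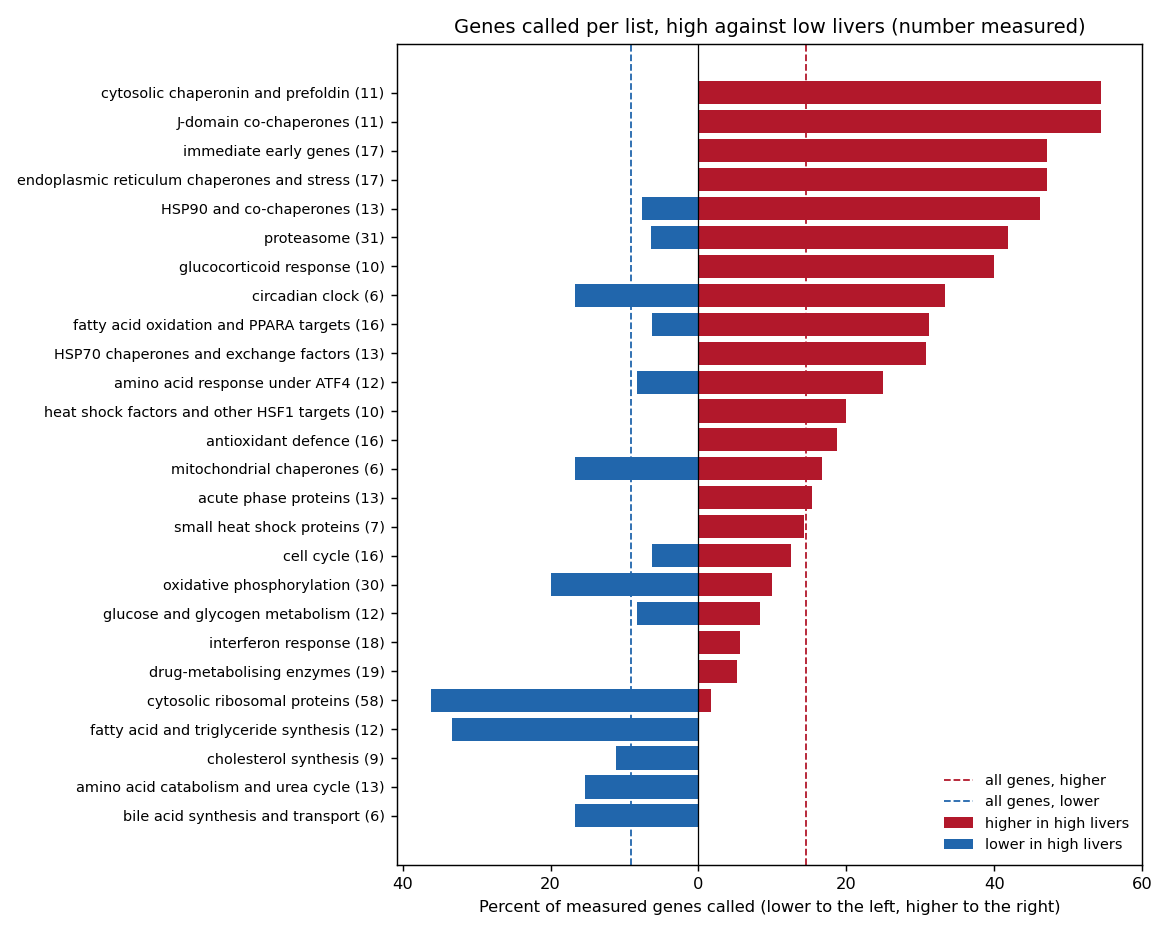
Share of the measured genes of each list drawn that were higher (red, to the right) or lower (blue, to the left) in the high livers, in percent on the x axis, with the number measured in brackets; dashed lines mark the shares over all genes, 14.5% and 9.19%. The cold-inducible list, with 2 measured genes, is not drawn. Among the lists drawn the chaperonin, J-domain, immediate early and endoplasmic reticulum lists lie farthest right and ribosomal proteins and lipid synthesis farthest left.

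Immune and inflammatory genes were counted by list, as were drug-metabolising enzymes. Of 18 interferon-induced genes DDX58 alone passed, as higher (5.56%, against 14.5% higher over all genes). Of the 18, 15 had positive differences of means, and the list's median was 0.35. The list's summed linear level had medians of 4841 in the high and 4817 in the low livers, with highest values of 138560 and 19255. DDX58 had 5.01, 5.555 and 10.05 (lowest, median and highest) in the high livers and 4.72, 5.135 and 6.25 in the low livers. Of 13 acute phase proteins 2 passed (15.4%, near the 14.5% over all genes), FGG and FGB, fibrinogen chains each 0.17 higher. CRP, HP and SAA2 did not pass. Of 19 drug-metabolising enzymes CYP2C33 alone passed, at 0.14 higher, and not without the single highest liver (adjusted p = 0.0539).

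Markers of cell types other than hepatocytes were also counted. Of 79 measured 3 were higher (3.8%) and 3 lower (3.8%), with a median of -0.005. The markers that passed were LYVE1 (0.31), COL3A1 (0.31) and HBB (0.37) on the higher side and TNNT1 (-0.30), PRSS2 (-0.27) and CA3 (-1.14) on the lower. The other LYVE1 probe sets, at 0.11 and 0.29, did not pass. None of the 8 macrophage, 6 neutrophil or 11 T and NK cell markers passed. The summed linear level of the macrophage markers ran from 4011 to 10430 in the high and 4259 to 12402 in the low livers, and that of the hepatocyte markers from 124985 to 146155 and 127784 to 145099. Of 14 hepatocyte markers FGB and APOH were higher and APOA2 lower, each by under 0.3. The skeletal muscle markers summed to 269 to 1860 in the high and 314 to 2674 in the low livers. Near the lowest value of the array in most livers were DCN of fibroblasts, SOX9 and CFTR of bile duct, MYH2 of muscle and CELA1 of pancreas. The part of these markers in the other results was not tested. Both Y-linked genes measured, EIF1AY and SRY, differed by -0.05 and -0.04 and did not pass.

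The 10 genes most like the score over all 150 livers were ranked by correlation. Pearson's r with the score was 0.737 for DNAJA1, 0.718 for HSP70.2, 0.689 for ATP2A2, which pumps calcium into the endoplasmic reticulum, 0.651 for IFRD1 and 0.649 for STIP1. TRA2B, a splicing regulator, had 0.624, and PTPN1, UAP1, DESI2 and RLIM had 0.603 to 0.622. These are descriptions over livers that include those chosen by the score. Without the single highest liver ATP2A2 came to 0.705, DNAJA1 to 0.672, HSP70.2 to 0.594 and STIP1 to 0.514. Of the 10, DNAJA1, ATP2A2 and TRA2B were then still among the 10 highest, which ran from 0.705 to 0.608 and took in ARF4, GK, DNAJB9, PLRG1, GART, UTP11 and DPH3.

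The single highest liver had a pattern of its own, and its genes were chosen after their values were seen. HSPA6, an HSP70 that is nearly silent without stress, had 12.48 there and 4.88 to 6.0 in the other livers. The small heat shock protein HSPB8 reached 12.28 against at most 9.80 elsewhere. HSPH1 reached 11.70 against 8.29 and DNAJB1 12.97 against 10.33. Both are score genes, so their height restates how this liver was chosen. HSP70.2 reached 13.57 on its probe set with the widest gap and at most 11.73 in the others. Of the 71 chaperone genes 17 were highest in this liver and 11 lay more than 1 log2 unit above the median of the others. No proteasome subunit of 31 was highest there.

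This liver was also the lowest of all for KLF15, at 6.29 against 8.25 to 11.08 elsewhere, a transcription factor of fasting metabolism, and for ITIH1, at 6.68. In all 443 probe sets were highest in it, 44 by more than 1 log2 unit. Its array did not stand apart, with a median correlation of 0.961 with the others, the 27th lowest. Its pig had a fat area of 13.1 cm2 and a drip loss of 2.63%. With 1 liver there is no test.

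**Figure D5:**
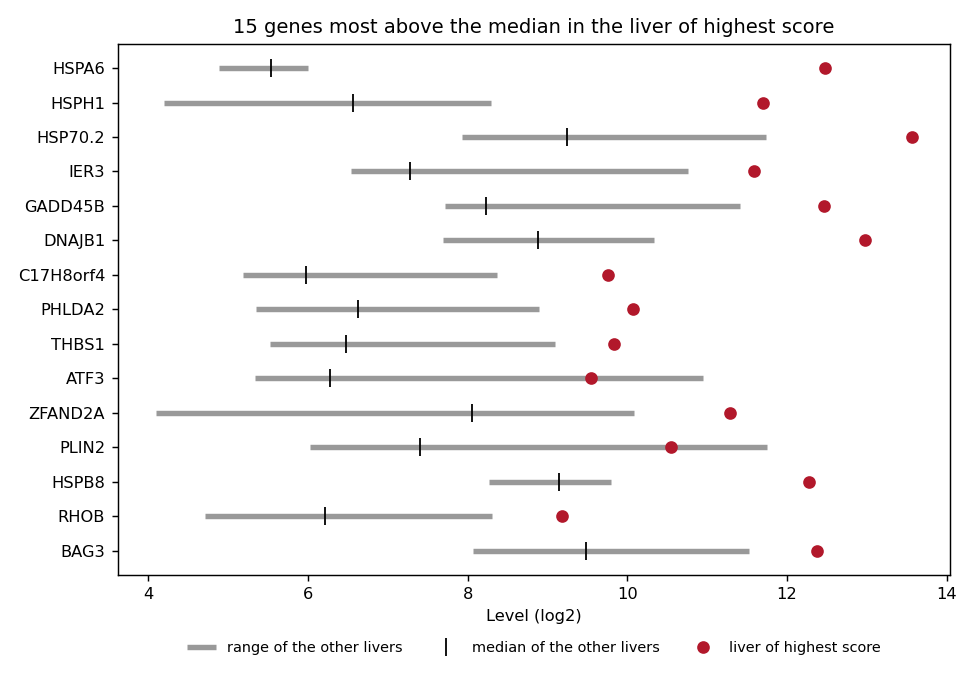
The liver of highest score (red points) against the other livers (grey bars from lowest to highest, with the median as a tick), log2 level on the x axis, for the 15 genes farthest above the median. HSPA6 lies 6.48 log2 units above the next liver, and ATF3 and PLIN2 lie within the range of the others. HSPH1, DNAJB1 and BAG3 are score genes, whose height restates how the liver was chosen.

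The 90 livers between the sets, whose scores ran from 8.65 to 9.3625, come from pigs that neither set holds. Their transcripts were fitted on the same score from the same arrays, so the slopes give no separate support. This comparison was added after the data were seen. The slope on the score passed for 0 of 23995 probe sets (limma, 0%), with 1985 at an unadjusted p under 0.05, over a range in which the score's SD was 0.195. In direction, 1908 of the 2145 probe sets higher in the high livers had a positive slope (89%) and 986 of the 1301 lower had a negative one (75.8%), against 53.1% positive over all probe sets. Probe sets move together, so these shares are a description. Of the 26 higher chaperone genes 25 had a positive slope, near the 89% of all higher probe sets.

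By gene, HSP70.2 had a slope of 1.08 (SE 0.27) per log2 unit of score in these 90 livers, DNAJA1 0.54 (SE 0.18), HSPA5 0.85 (SE 0.23), PLIN2 1.68 (SE 0.43) and MFSD2A 2.39 (SE 0.65). DBP had -0.90 (SE 0.26) and CYP7A1 -1.61 (SE 0.73). DGAT2, at 0.01 (SE 0.16), CEBPA, at -0.09 (SE 0.23), and HSPA9, at -0.13 (SE 0.27), had slopes smaller than their SE. None of the slopes named here passed. The adjusted p (limma) was 0.167 for HSP70.2 and PLIN2, 0.172 for HSPA5, 0.185 for MFSD2A and 0.312 for DNAJA1. By list, the slope had the sign of the high against low difference for 8 of the 8 called endoplasmic reticulum genes and 14 of 15 of the proteasome. It did so for 22 of 22 ribosomal genes, 6 of 8 immediate early genes and 2 of 4 lipid synthesis genes. Over all called probe sets 89% of the higher and 75.8% of the lower did so, and these counts are a description.

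Neither trait passed between the sets after adjustment. Fat area was 8.1, 14.05 and 21.4 cm2 (lowest, median and highest) in the high livers' pigs and 10.6, 15.85 and 23.7 cm2 in the low livers' pigs. The ranges overlapped almost wholly, and 21 of 30 high livers' pigs lay below the low livers' median. The means were 14.5 (SD 3.37) and 16.4 (SD 3.04) cm2, a difference of -1.89 (SE 0.829, permutation p = 0.027, adjusted p = 0.099 over 8 measures, 30 against 30). Within blocks of 100 title numbers, a number on each label whose meaning is not given, the difference was -2.68 cm2 (permutation p = 0.00873, adjusted p = 0.0611 over 7 measures). With livers chosen by a score without HSPH1 it passed, at -2.24 cm2 (adjusted p = 0.0298), and without HSPA8 too, at -2.08 cm2 (adjusted p = 0.0438).

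Over all 150 livers the score and fat area had a Pearson r of -0.188, with a permutation p of 0.0219 (0.0876 adjusted over 8 relations). Spearman's rho was -0.229, with a permutation p of 0.00462 (0.0319 adjusted). Without the 2 livers of most extreme fat area r was -0.188. The rank correlation passed and the linear one did not. Within title blocks r was -0.183, and negative in 8 of 10 blocks. The actin 3' to 5' difference also went with the score. Its r was -0.223, at a permutation p of 0.00558 (0.0446 adjusted), its rho -0.215, at 0.00797 (0.0319 adjusted), and r was -0.168 without its 2 most extreme livers. Its part in the relation of fat area was not tested.

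Drip loss was 5.32% (SD 2.19) in the high and 5.43% (SD 2.18) in the low livers' pigs, a difference of -0.11 (SE 0.563, permutation p = 0.843, adjusted p = 0.843). The title number averaged 434.8 in the high and 306.5 in the low livers (permutation p = 0.0294, adjusted p = 0.099). Title blocks were uneven: numbers 200 to 299 held 0 high and 10 low of 23 livers. Numbers 600 to 699 held 4 high and 1 low of 10, and 700 to 799 held 3 and 1 of 7. With title blocks as a covariate 2855 probe sets passed, 2423 of them shared with the fit without covariates. With fat area and drip loss as covariates 3411 passed, 3044 shared.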

How the data were processed

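Liver RNA of 150 pigs was measured on 1 array each. The values deposited by the authors are on a log2 scale, as read from their range. GCOS 1.1.1 is named in the submitters' processing notes, and no source used here gives the summary method or normalization. The number of arrays limits the precision. Symbols came from the array's annotation: 10069 probe sets had 1, 198 several and 13732 none. The 124 control probe sets and the 4 of the score were not tested. limma 3.58.1 (lmFit, eBayes with trend) in R 4.3.3 compared high with low livers, with Benjamini-Hochberg adjustment over 23995 probe sets. Traits and array measures had two-sided permutation tests of 100000 resamples. Named were the 15 largest differences per direction and in each list up to 5 that passed per direction, plus up to 4 members of smallest p in the chaperone, proteasome, cold and clock lists. Other genes were named after their values were seen. The members and lists were chosen with earlier results of these data known. Alternatives changed the set sizes, the score's genes, normalization, filters, eBayes settings, threshold and covariates.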

Additional observations from a re-analysis of the deposited data

How the results depend on the processing

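The numbers of probe sets higher and lower stayed within 1.5 times of 2145 and 1301 under the other alternatives, except as follows. The higher count was 1337 without HSPH1 in the score, 3519 without DNAJB1, 801 with DBP, ARNTL and NFIL3 as covariates and 1236 at an adjusted p under 0.01. The lower count was 2336 without DNAJB1, 828 without BAG3, 732 among probe sets with an SD over 0.25 (where fewer were tested), 262 with the clock covariates, 710 with PLIN2 and CPT1A and 551 at an adjusted p under 0.01. For the other changes the cause was not tested. Fat area passed at -2.24 cm2 without HSPH1 (adjusted p = 0.0298) and -2.08 without HSPA8 (adjusted p = 0.0438), and drip loss turned to 0.394 within title blocks without passing. The title number passed at 155 and the GAPDH and actin 3' to 5' differences at -0.145 and -0.286 without HSPH1, and the array median at 0.037 and actin at -0.324 without HSPA8. Without passing, the array median turned to -0.024 without HSPH1, the median correlation to 0.00103 with scaled probe sets, 0.00109 without HSPH1 and 0.000684 without BAG3, and the GAPDH difference to 0.04 in 15 against 15 livers, 0.069 without DNAJB1 and 0.024 without HSPA8.

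Of the named probe sets that passed, 23 did so in each of the alternatives that could be fitted for them, the stricter threshold aside; DBP and NFIL3, among these, are covariates in the clock fit. Under the clock covariates 7 changed direction, none passing: ZFP36 to -0.054, ATF3 to -0.019, CDKN1A to -0.091, CEBPB to -0.0094, BCKDHB to 0.035, PPP1R3B to 0.18 and CA3 to 0.25. With PLIN2 and CPT1A, FASN came to 0.12 and CA3 to 0.0019. Without HSPH1 in the score SDHB came to -0.054, HBB to -0.012, HSPD1 to -0.11, HSF2 to -0.011 and NDUFV1 to 0.033. RBM3 came to -0.013 and HSPB2 to 0.002 in 50 against 50 livers, HSPB2 to 0.029 without BAG3, and LONP1 to 0.0053 with title blocks. No paired analysis was possible because both sets hold different pigs with no shared number.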

Other observations

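Some smaller groups outside the comparisons above also held called genes. Over all genes 14.5% were higher and 9.19% lower. Antioxidant defence had 18.8% higher, glucose metabolism 8.33% in each direction, amino acid breakdown 15.4% lower and the cell cycle 12.5% higher and 6.25% lower. These shares lie near those over all genes and are no result about the groups. In antioxidant defence 3 of 16 genes were higher and 0 lower: SOD2, the mitochondrial superoxide dismutase, by 0.51 (SE 0.12, adjusted p = 0.00182), TXNRD1, the cytosolic thioredoxin reductase, by 0.33 and GCLM, a subunit of glutathione synthesis, by 0.26. The other TXNRD1 probe sets differed by 0.29, which passed, and -0.22, which did not, and the other GCLM probe set by -0.04 without passing. Of this list 1 gene was higher without HSPH1 in the score, 1 with PLIN2 and CPT1A as covariates and 0 in the fit with the clock genes. The haem oxygenase HMOX1 and the quinone reductase NQO1, at 0.09 and 0.15, did not pass. In glucose metabolism LDHA was 0.33 higher (SE 0.063, adjusted p = 0.000143) and GAPDH differed by -0.15 (SE 0.042, adjusted p = 0.00986), while PCK2, PYGL and PGM1 did not pass. Among the other GAPDH probe sets that at -0.143 passed, while those at -0.026, -0.140 and -0.161 did not. Of 13 genes of amino acid breakdown and the urea cycle, FAH and BCKDHB were lower, by differences of -0.20 and -0.22. In the cell cycle list the inhibitor CDKN1A was 0.44 higher (adjusted p = 0.0372; 0.0609 without the single highest liver), PCNA 0.20 higher and MCM3 differed by -0.17.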
